A study of Mus musculus with 2 samples.

Results

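Sertoli cells are the somatic cells of the seminiferous tubule. Each one spans the epithelium, holds many germ cells at once, joins its neighbours by the tight junctions of the blood-testis barrier, and supplies germ cells with lactate, iron, retinoids and growth factors. It also engulfs the residual bodies that spermatids shed. It responds to follicle-stimulating hormone and to androgens on behalf of the germ cells. Here barcodes were taken as Sertoli cells from a droplet-based single-cell RNA-seq table by 5 genes: the cystatins Cst9 and Cst12, the beta-defensins Defb19 and Defb36, and Aard. A barcode was kept if it held at least 5 unique molecular identifiers (UMIs) of these genes together, and at least 7 per 10000 of its own UMIs. The rule kept 1395 of 28245 barcodes, or 4.94% (4.69 to 5.20%). Intervals in brackets are exact 95% intervals and cover counting error only.

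The table holds total testicular cells of adult mice of the strain C57BL/CJ;ICR, with 1 library labelled WT and 1 labelled miR-202-/-, that is, lacking both copies of a microRNA gene known for its expression in the gonads. Testes were digested with collagenase and then trypsin, and debris was removed by sorting. The sources used here do not give the number of mice behind a library. Barcode names end in a suffix, 1 or 2, and no source used here ties a suffix to a genotype, so that no value below belongs to a genotype and the suffixes are not replicates of a group. With 1 library per genotype no difference was put to a statistical test, and a gene is called higher or lower by size alone.

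Suffix 1 held 705 of the gated barcodes, 5.45% of 12935 (5.07 to 5.86%), and suffix 2 held 690, 4.51% of 15310 (4.18 to 4.85%). The gated barcodes summed to 9195890 UMIs, with a median of 4958 per barcode and a range of 3529 to 113691. They were shallow for this table, in which the other 26850 barcodes had a median of 5832. Of 73 barcode sequences that occur under both suffixes, 7 were gated under 1 suffix and 0 under both.

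The promoters of Cst9, Cst12 and Defb36 are shown first, as gate genes, with those of 2 X-linked genes that were high in members. Those of Defb19 and Aard are not shown. Cst9 lies on chromosome 2 at 148835147 to 148838738 of GRCm38 and Cst12 at 148789361 to 148793546, both on the plus strand. Defb36 lies on the same chromosome at 152604327 to 152612729, and Defb19 at 152576086 to 152580312 on the minus strand. Aard lies on chromosome 15 at 52040107 to 52045722. All 5 are protein-coding. The sequences below are the 250 bases before each gene's start, 5′ to 3′, from RefSeq on GRCm38.p6. Gene positions in the text are from GENCODE M21, and for Cst12 and Rhox5 its start differs from that of RefSeq. They cover chr2:148834897-148835146 for Cst9, chr2:148789115-148789364 for Cst12, chr2:152604077-152604326 for Defb36, chrX:37754358-37754607 for Rhox5 and chrX:103414217-103414466 for Tsx, all on the plus strand. Capitals mark matches on either strand to any of the motifs searched. For GATA factors these were AGATAA and, with a different first base, TGATAA. The SOX motif was AACAAT and that of steroidogenic factor 1 was AAGGTCA. For a TATA box the letters were TATAAA.
Cst9: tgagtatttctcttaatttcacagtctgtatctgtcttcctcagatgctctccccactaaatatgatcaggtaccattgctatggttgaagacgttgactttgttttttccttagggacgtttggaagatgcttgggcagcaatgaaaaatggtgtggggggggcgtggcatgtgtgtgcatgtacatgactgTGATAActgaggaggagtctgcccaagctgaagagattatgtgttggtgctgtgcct
Cst12: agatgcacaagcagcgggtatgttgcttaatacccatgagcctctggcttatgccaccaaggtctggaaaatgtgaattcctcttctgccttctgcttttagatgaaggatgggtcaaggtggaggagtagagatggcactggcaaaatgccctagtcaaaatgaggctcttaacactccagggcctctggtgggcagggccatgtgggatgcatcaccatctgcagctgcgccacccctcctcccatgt
Defb36: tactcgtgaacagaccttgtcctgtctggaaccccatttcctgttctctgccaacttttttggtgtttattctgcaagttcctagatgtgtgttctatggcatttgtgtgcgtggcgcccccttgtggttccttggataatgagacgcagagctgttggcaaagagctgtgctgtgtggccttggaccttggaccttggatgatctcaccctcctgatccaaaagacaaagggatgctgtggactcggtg
Rhox5: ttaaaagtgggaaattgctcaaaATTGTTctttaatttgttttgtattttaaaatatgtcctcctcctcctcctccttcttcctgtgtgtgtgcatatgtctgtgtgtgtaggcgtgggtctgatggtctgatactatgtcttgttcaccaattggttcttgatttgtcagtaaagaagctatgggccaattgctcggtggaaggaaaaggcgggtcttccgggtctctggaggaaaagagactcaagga
Tsx: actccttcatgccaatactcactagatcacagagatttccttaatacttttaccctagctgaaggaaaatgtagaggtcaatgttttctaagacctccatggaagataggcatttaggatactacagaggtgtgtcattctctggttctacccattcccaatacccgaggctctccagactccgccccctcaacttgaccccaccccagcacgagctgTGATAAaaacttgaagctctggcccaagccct
The Cst9 and Cst12 windows share 140 of 212 aligned bases (66.0%). Of 28 leading Sertoli genes looked up, 18 had an entry. A GATA match was found in 7 of the 18, against 17.0% of 27025 promoters of the same length. The SOX motif was found in 3, against 9.65%. A TATA box match was found in 5, against 13.0%, and the motif of steroidogenic factor 1 in 1, which was Amhr2, against 4.05%. Cst12 and Defb36 have none of the motifs in this window. Those matches are letters in a window and show no binding.

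The gate genes were spread over most members. Defb19 was the most abundant, at 1321 CPM (its UMIs per 1000000 of the summed UMIs) under suffix 1 and 1361 under suffix 2. It was detected in 98.4% of gated barcodes. Cst9 stood at 633 and 669 CPM and was detected in 87.0%. Aard, at 436 and 405 CPM, was detected in 80.1%. Cst12 was lower under suffix 1, at 425 against 553 CPM, and Defb36 was higher there, at 378 against 280 CPM, and these genes were detected in 80.4% and 68.1% of members. All 5 genes were detected in 616 members, 4 in 456, 3 in 240, 2 in 68 and 1 in 15. The median member held 14 gate UMIs, or 24.5 per 10000, with a range of 7.01 to 253 per 10000. These values chose the members and are a description.

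Members and non-members met without a gap at the threshold. Exactly 5 gate UMIs were held by 107 members, and 277 barcodes outside held 4. A further 350 held 5 or more but stayed under 7 per 10000. Those 350 were deep, with a median of 19641.5 UMIs, and protamines and transition proteins (Prm1, Prm2, Tnp1 and Tnp2, which pack the spermatid nucleus) took a median of 20.6% of their UMIs, against 5.63% in members. The gate held 71.4% of all UMIs of the 5 genes in the table, as the plot of gate UMIs by depth shows.

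**Figure D1:**
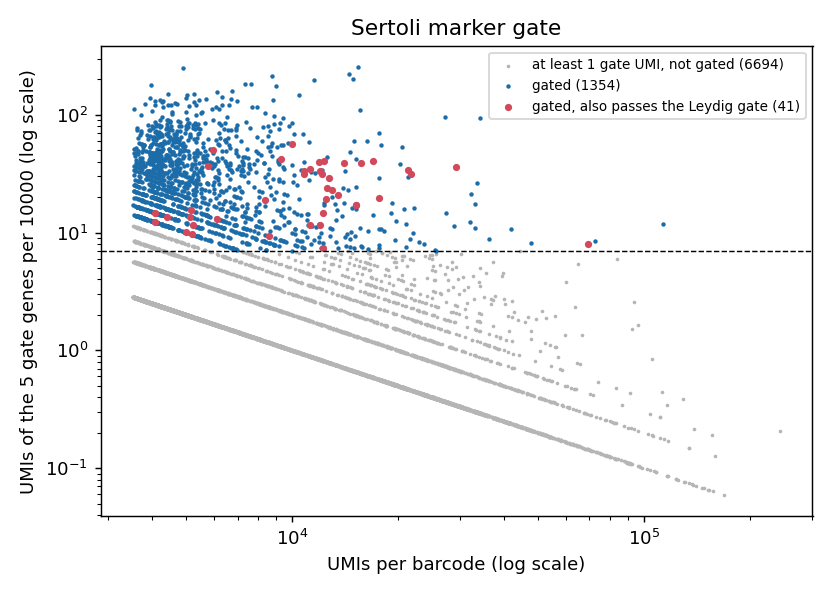
UMIs of the 5 gate genes per 10000 of a barcode's UMIs (y axis, log scale) by UMIs per barcode (x axis, log scale), for barcodes with at least 1 gate UMI. Blue points are gated, red points are the 41 gated barcodes that also pass the Leydig gate, grey points are not gated and the dashed line is at 7 per 10000. Most members lie near the shallow edge of the table, and the grey points under the line include the 350 deep barcodes with 5 or more gate UMIs.

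The summed level of Sertoli genes that the rule did not use rose with the gate. A panel of 11 such genes (Sox9, Wt1, Gata4, Trf, Inha, Kitl, Cldn11, Rhox5, Rhox8, Clu and Ctsl) stood at 0.178 UMIs per 10000 (0.172 to 0.183) in the 20156 barcodes with 0 gate UMIs. It stood at 1.09 (0.987 to 1.20) in barcodes with 4 gate UMIs. Inside the gate it was 2.95 per 10000 (2.67 to 3.25) in the 123 members at 7 to 10 gate UMIs per 10000, 5.05 (4.80 to 5.31) in 447 members at 10 to 20, and 10.97 (10.6 to 11.4) in 417 members at 20 to 40. The 408 members at 40 or more reached 32.0 (31.3 to 32.7). The order was the same under each suffix. The intervals leave out the spread between barcodes, which for Clu and Ctsl went beyond counting error, and are no test between groups. The lowest gated group was at 2.62 (2.24 to 3.05) under suffix 1 and 3.22 (2.83 to 3.65) under suffix 2. The sum weighs abundant genes most: in members Clu had 4339 UMIs and Cldn11 351. Without barcodes that also pass the Leydig gate described below, the groups within the gate stood at 2.34, 4.65, 9.75 and 32.2 per 10000. Median depth was 8601 UMIs in the lowest of those groups and 4984, 4640 and 4689 in the others, and the protamine and transition protein share was 14.3%, 5.93%, 5.59% and 5.07%. The part of depth and of germ cell RNA in that rise was not tested.

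**Figure D2:**
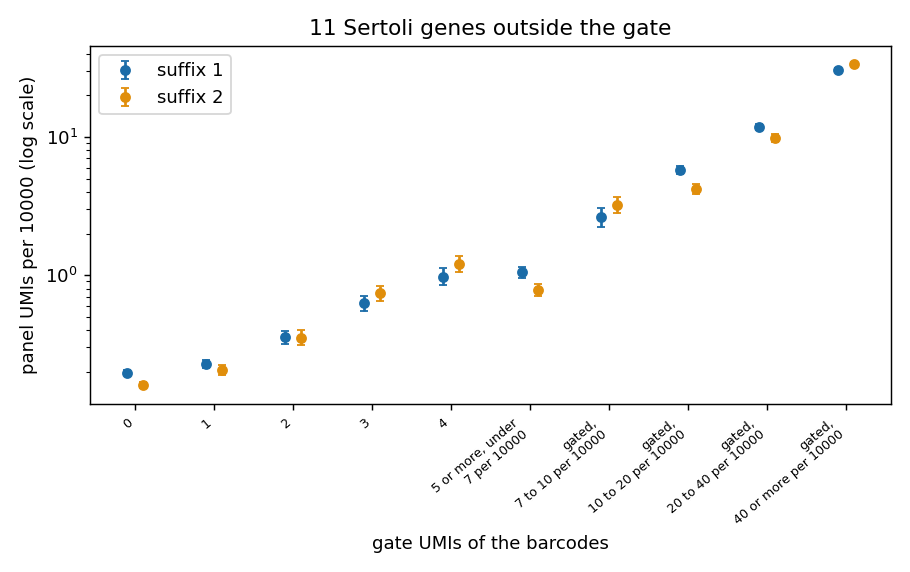
Summed level of 11 Sertoli genes outside the gate, in UMIs per 10000 (y axis, log scale), for barcodes grouped by their gate UMIs (x axis), under suffix 1 (blue) and suffix 2 (orange). Points are sums over the barcodes of a group and bars are exact 95% intervals for counting error. The level rises from 0.178 with 0 gate UMIs to 32.0 in members with 40 or more per 10000, with the 350 deep barcodes under the line at 0.910.

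Leydig markers went against the label in a small set of members. Of the 1395, 41 (2.94%, 2.12 to 3.97%) also passed a gate for Leydig cells, the interstitial cells that make testosterone. That gate asked for at least 10 UMIs and at least 20 per 10000 of Cyp17a1, Cyp11a1, Hsd3b1, Star and Insl3. Suffix 1 held 22 of them and suffix 2 held 19, and they were 51.9% of the 79 barcodes of the Leydig gate. They entered the Sertoli gate mainly through Defb19, detected in 100% of them, and Aard, detected in 65.9%. Cst9 was detected in 14.6%, Cst12 in 4.88% and Defb36 in 2.44%. Sox9, Wt1, Cldn11 and Rhox5 had 0 UMIs in these 41 barcodes, which allows up to 5.75 CPM, whereas the other 1354 members had 18.0, 20.6, 40.5 and 45.9 CPM. Barcodes of the Leydig gate outside the Sertoli gate also held Defb19, detected in 65.8% of 38, and Aard, in 26.3%. Cyp17a1, which makes androgen precursors, stood at 4224 CPM in the 41 and 1.61 CPM in the 1354. Insl3, a Leydig peptide hormone, stood at 3147 and 0.576 CPM. Both genes belong to the Leydig gate, so their levels describe the split it made. Other Sertoli genes were present in both: Clu stood at 1117 CPM in the 41 and 433 in the 1354, Ctsl at 487 and 436, Amhr2 at 111 and 128, and Inha at 67.0 and 96.8. The 41 were deeper, with a median of 11989 UMIs against 4887.

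**Figure D3:**
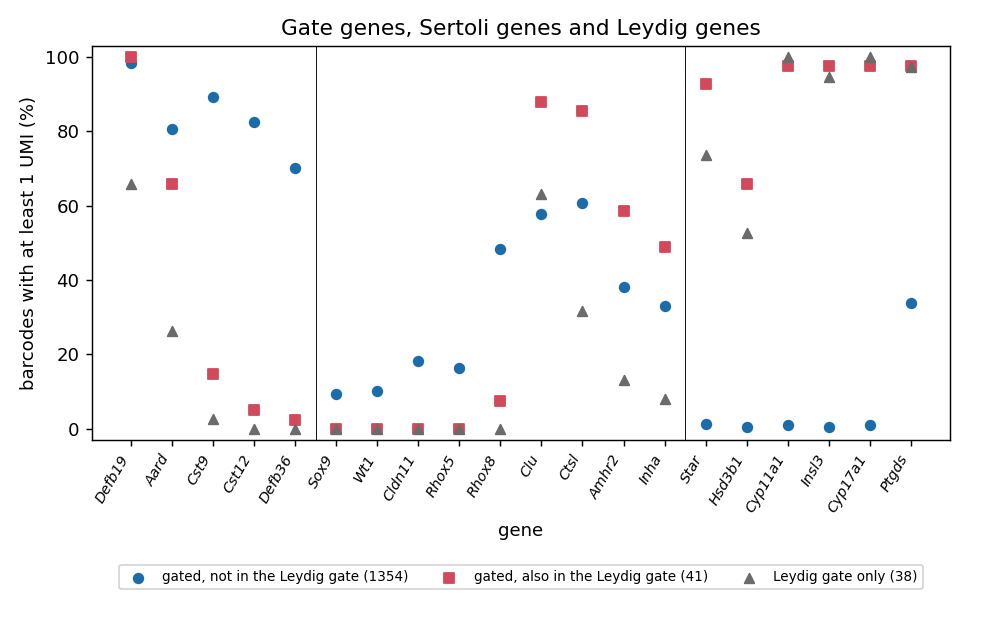
Share of barcodes with at least 1 UMI (y axis, percent) of the 5 gate genes (left), 9 other Sertoli genes (middle) and 6 Leydig genes (right), in the 1354 members outside the Leydig gate (blue circles), the 41 members inside it (red squares) and the 38 barcodes of the Leydig gate that are not members (grey triangles). The red squares are at 100% for Defb19 and at 14.6%, 4.88% and 2.44% for Cst9, Cst12 and Defb36, and Sox9, Wt1, Cldn11 and Rhox5 are at 0 in red and grey.

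Other cells were rarer in the gate. The macrophage gate was passed by 3 members and the stromal or myoid gate by 4. Summed Leydig markers (9 genes) stood at 0.148 UMIs per 10000 in the 1354 members, against 0.195 in other barcodes, and 10 macrophage markers at 0.564 against 0.467. Stromal markers (8 genes) stood at 0.274 against 0.190. The Leydig values follow in part from the filter. The genes of the Leydig gate are among the 9 markers, and other barcodes still hold the 38 barcodes of that gate. Germ cell RNA was plentiful in members and non-members alike: 14 spermatid markers took 1000 UMIs per 10000 in members and 889 in other barcodes, and 11 spermatocyte markers took 83.5 and 97.0. Barcodes of like depth with 0 gate UMIs had 905 and 95.7. Whether this RNA was free in the droplets or came with the cells was not tested.

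Across the table, 13729 genes outside the gate were measured, that is, had at least 20 UMIs found or expected in members. A gene was called higher or lower if its CPM differed from that of other barcodes by 2-fold or more, the same way for each suffix, with 50 or more UMIs found or, for lower genes, expected. By that rule 1123 genes (8.18%) were higher and 24 (0.175%) were lower. Without the 41 Leydig-gate barcodes, 816 of 13186 (6.19%) were higher and 17 (0.129%) were lower. The genes higher with the 41 counted, here together with the gate genes that chose the members, supplied 5.95% of members' UMIs. They supplied 1.26% of those of other barcodes. Without Leydig-gate barcodes on either side, the shares of the genes then higher, gate genes included, were 4.01% and 0.839%. The median ratio over measured genes was 0.942 under suffix 1 and 0.948 under suffix 2, or -0.09 and -0.08 on the log2 scale. On UMIs per barcode in place of CPM, where other barcodes held 1.83 and 1.78 times as many UMIs on average, 764 genes were higher and 4372 lower, so that 14.9% of calls were higher against 97.9% on CPM. Leaving out every member that passed another gate or held over 14874 UMIs gave 719 higher genes.

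Of 227 listed genes in 16 groups tied to Sertoli function, 197 were measured, 94 were higher and 0 were lower. Over all measured genes 8.18% were higher and 0.175% lower. The median log2 ratio was 1.53 for listed genes against -0.09 for all. Without the 41 barcodes 179 listed genes were measured, 70 were higher and 0 were lower, against 6.19% and 0.129% of all. Their median was then 0.85 against -0.10. The lists were chosen with earlier results of these data known, so these counts are a description and no support for the label. In what follows, ratios are of members to other barcodes under suffix 1 and then suffix 2, over all 1395 members. Without the 41 barcodes they change by less than 1.5 times unless the value without them, or the share of UMIs in them, is given. The plot of listed genes shows them all without the 41. Counts of listed genes against other somatic gates are given further below.

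**Figure D4:**
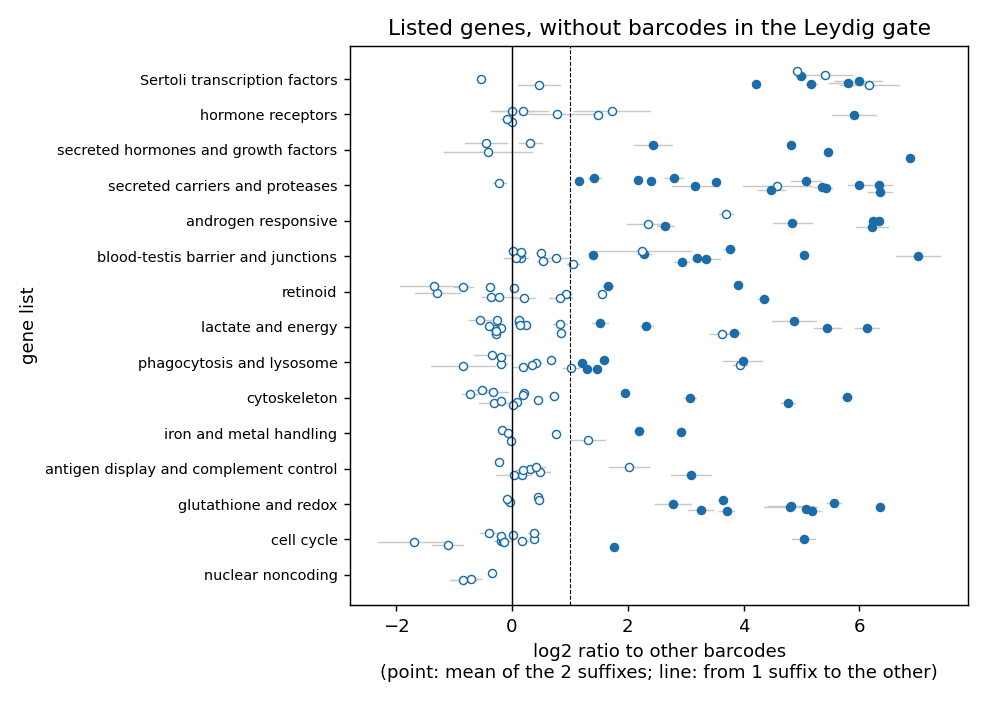
Log2 ratio of CPM in the 1354 members outside the Leydig gate to other barcodes (x axis) for every measured gene of 15 lists (y axis). Points are the mean of both suffixes, grey lines run from one suffix to the other, filled points passed the size rule and the dashed line marks 2-fold. Androgen-responsive and glutathione genes lie mostly to the right of the line, while retinoid, energy and cell cycle genes lie on both sides.

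Transcription factors set Sertoli identity, and 7 of 10 were higher (5 of 10 without the 41). Sox9, which drives Sertoli fate, stood at 16.1 and 17.9 CPM in members and 0.357 and 0.225 in other barcodes, 45.1-fold (31.5 to 64.9) and 79.7-fold (53.2 to 121). Wt1, a zinc finger factor that maintains that fate, stood at 18.2 and 20.9 against 0.435 and 0.316 CPM, 41.8-fold (30.1 to 58.3) and 66.1-fold (46.5 to 94.8). Both were sparse per barcode. With every barcode thinned to 3500 UMIs, Sox9 was detected in 5.81% of members (4.64 to 7.17%) and in 0.118% of barcodes of like depth with 0 gate UMIs, at median depths of 4958 and 4885. Gata4 was 38.7-fold and 59.0-fold higher with 53 UMIs, and fell under the 50 UMIs the rule asks for without the 41. Nr5a1, steroidogenic factor 1, lost the call in the same way, with 48.3% of its UMIs in those barcodes. Dmrt1, which keeps the male fate, stood at 3.72 and 5.51 CPM against 3.67 and 3.27, and Zfpm2, a partner of GATA factors, had ratios of 0.716 and 0.633. Neither was called.

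Receptors and secreted signals came next. Amhr2, the receptor of anti-Müllerian hormone, stood at 114 and 142 CPM against 2.51 and 1.87, 45.6-fold (39.9 to 52.0) and 75.9-fold (66.1 to 87.3). It was the only 1 of 9 measured hormone receptors called with and without the 41 barcodes. Igf1r (63.8% of its UMIs in the Leydig-gate barcodes) and Thra (27.5%), receptors of insulin-like growth factor and thyroid hormone, were called only with them. Tgfbr1 and Acvr1b, receptors of the TGF-beta family, had ratios of 0.827 and 1.02, and of 0.975 and 0.906, and were not called. Of 8 measured hormones and growth factors 5 were higher. Inha, the shared subunit of the inhibins that lower follicle-stimulating hormone, stood at 93.8 and 96.6 CPM against 2.29 and 2.14, 41.02-fold (35.6 to 47.3) and 45.2-fold (39.1 to 52.2). Inhbb, a beta subunit, was 111-fold and 110-fold higher with 70 UMIs in members. Kitl, which feeds spermatogonia through Kit, was 36.4-fold and 34.8-fold higher. Gdnf, the self-renewal factor of spermatogonial stem cells, had 3 and 5 UMIs. The growth factors Igf1 and Pdgfa had ratios of 0.460 and 1.20, and of 0.591 and 0.947, and were not called. Cxcl12, a chemokine, passed the rule with 96.4% of its UMIs in the Leydig-gate barcodes. Amh and Fshr were not analysed here.

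Secreted carriers and proteases were higher in 14 of 17 cases, and in 14 of 16 without the 41 barcodes. Clu, a secreted chaperone of the tubule fluid, stood at 482 and 460 CPM in members against 6.24 and 4.71, 77.3-fold (71.6 to 83.4) and 97.6-fold (89.8 to 106). It was detected in 47.5% of thinned members and 2.17% of thinned barcodes of like depth. Ctsl, a lysosomal cysteine protease that is also secreted, stood at 431 and 448 CPM against 11.5 and 10.1, 37.5-fold and 44.3-fold. Sparc, a matrix glycoprotein, was 56.1-fold and 57.7-fold higher. Shbg, which carries androgens, was 52.5-fold and 68.5-fold higher with 62 UMIs, and Trf, which carries iron to germ cells, was 13.3-fold and 8.84-fold higher. Ptgds, prostaglandin D synthase, was 133-fold and 87.6-fold higher, with 85.3% of its UMIs in the Leydig-gate barcodes, and 19.0-fold and 26.2-fold higher without them. Serpina5, a protease inhibitor, was 98.5-fold and 134-fold higher with 41.6% of its UMIs in them. The smallest ratios of called genes in the group were those of Timp2, a metalloprotease inhibitor, at 3.66 and 2.79, or 2.30 and 2.15 without the 41.

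Androgen-responsive genes were higher in 6 of 7 cases, and in 5 of 7 without the 41. The homeobox gene Rhox5 stood at 37.4 and 49.8 CPM against 0.643 and 0.583, 58.1-fold (45.3 to 75.1) and 85.4-fold (66.9 to 110). Its relative Rhox8 stood at 160 and 163 CPM against 2.37 and 2.17, 67.5-fold and 75.1-fold, and Tsx, a testis-specific X-linked gene, at 164 and 160 against 2.15 and 2.08, 76.2-fold and 76.6-fold. Tubb3, a beta-tubulin, was 21.7-fold and 34.6-fold higher, and Eppin, a protease inhibitor, 5.74-fold and 6.94-fold. Drd4, a dopamine receptor, had ratios of 4.398 and 7.29 with 48 UMIs and was not called.

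Junction genes divided, with 9 of 19 higher and 8 of 19 without the 41. Cldn11, the main claudin of the blood-testis barrier, stood at 37.6 and 38.8 CPM against 0.403 and 0.243, 93.4-fold (69.6 to 127) and 160-fold (113 to 231). Lsr and F11r, membrane proteins of cell contacts, were 37.1-fold and 31.9-fold, and 15.05-fold and 12.8-fold higher. Espn, an actin bundler of the ectoplasmic specialization, was 8.57-fold and 11.7-fold higher. Tjp1, a tight junction scaffold, stood at 26.4 and 24.3 CPM against 25.5 and 23.1 and was not called, nor was the cadherin Cdh2, at 17.4 and 16.3 against 19.1 and 15.3. Among 15 measured cytoskeletal genes 4 were higher: Tuba1a, 50.1-fold and 57.2-fold, Vim, 27.1-fold and 30.4-fold, Tmsb4x, 8.60-fold and 7.4998-fold, and Dstn, 4.32-fold and 3.97-fold. The first pair are a tubulin and an intermediate filament, the second pair bind actin. Tubb6 and Fscn1, a tubulin and an actin bundler, had ratios of 0.622 and 0.777, and of 0.669 and 0.597.

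The lactate dehydrogenases parted. Ldhb stood at 209 and 234 CPM in members against 3.203 and 3.02, 65.3-fold (58.6 to 72.9) and 77.5-fold (69.5 to 86.4). Ldha stood at 416 and 401 CPM against 554 and 548, a ratio of 0.752 (0.719 to 0.786) and 0.731 (0.697 to 0.767), and was not called. In all, 8 of 20 measured genes of lactate and energy supply were higher, and 6 of 20 without the 41. The glycolytic enzymes Pfkl (51.7-fold and 37.8-fold), Hk2 (12.6-fold and 14.4-fold) and Gapdh (5.58-fold and 6.04-fold) were among them. Fabp5, a fatty acid carrier, was 28.2-fold and 43.1-fold higher. Cpt1a, which admits fatty acids to mitochondria, was 23.1-fold and 22.7-fold higher, with 50.6% of its UMIs in the 41 barcodes, and was not called without them. Slc16a1, a lactate transporter, was 2.26-fold and 2.01-fold higher, and 1.93-fold and 1.63-fold without the 41, where it was not called.

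Retinoid genes were higher in 4 of 14 cases, and in 3 of 14 without the 41. Aldh1a1, which makes retinoic acid, was 77.7-fold and 47.4-fold higher with 77.2% of its UMIs in the Leydig-gate barcodes, and 19.0-fold and 21.8-fold higher without them. Rara, a retinoic acid receptor, was 3.0001-fold and 3.32-fold higher. Dhrs3, which reduces retinal, was called with 63.8% of its UMIs in the 41 barcodes and not called without them. Crabp1 and Rbp4, carriers of retinoic acid and retinol, had 16 and 12 UMIs and were not called.

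Genes of phagocytosis and the lysosome were higher in 9 of 21 cases, and in 5 of 15 without the 41. Tyro3, a receptor for dying cells, was 11.8-fold and 18.9-fold higher with 60 UMIs, and its ligand Gas6, from the list of secreted proteins, was 33.6-fold and 45.1-fold higher. Cd36 and Abca1, a lipid receptor and a lipid exporter, passed the rule with 98.7% and 85.5% of their UMIs in the Leydig-gate barcodes. Lamp1 and Laptm4a, lysosomal membrane proteins, had ratios of 0.958 and 0.843, and of 0.968 and 0.930. Of 18 measured glutathione and redox genes 11 were higher, and 10 of 15 without the 41: Gstm6 was 84.3-fold and 72.7-fold higher, while Gstm1, 63.4-fold and 40.7-fold, had 83.9% of its UMIs in the 41 barcodes and was 13.0-fold and 11.9-fold higher without them. Other glutathione transferases kept larger ratios without the 41: Gsta2 was 51.3-fold and 43.7-fold higher, Gstm2 33.6-fold and 33.9-fold and Mgst1 21.5-fold and 37.3-fold. Gpx4, a glutathione peroxidase abundant in spermatids, had ratios of 0.955 and 0.948, and Sod1, a superoxide dismutase, 1.01 under both suffixes. Antigen display and complement control went from 4 of 10 to 1 of 9, which was Tgfb1, a cytokine, at 6.31-fold and 10.8-fold. Serping1, a complement inhibitor, had 89.0% of its UMIs in the 41 barcodes, B2m 76.8% and H2-D1 55.5%, and Cd55 and Cd59b, which shield cells from complement, had ratios of 1.01 and 1.19, and of 0.873 and 1.27. Iron and metal handling went from 5 of 8 to 2 of 7. Hmox1, which breaks down haem, was 7.84-fold and 7.89-fold higher, and Ftl1, a ferritin chain, 8.06-fold and 8.48-fold, or 4.37-fold and 4.81-fold without the 41. Mt3, a metallothionein, had 96.0% of its UMIs in them, while Tfrc, the transferrin receptor, and Mt2 had ratios of 0.870 to 0.9502.

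Cell cycle genes did not follow the gate except for 2 inhibitors, the only called genes of 15. Cdkn1b stood at 11.98 and 12.2 CPM against 0.396 and 0.328, 30.2-fold and 37.1-fold, and Cdkn1a was 3.88-fold and 3.49-fold higher. Mki67, a mark of dividing cells, stood at 7.65 and 4.13 CPM against 14.5 and 11.3, and Ccnd1 at 2.69 and 0.918 against 5.58 and 4.82. Cdk1 and Rb1 had ratios of 1.23 and 1.26, and of 1.18 and 1.35. None of these 4 passed the rule. Of 5 nuclear noncoding RNAs Neat1 and Meg3 were called with the 41 barcodes, which held 76.3% and 83.3% of their UMIs, and 0 of 3 measured were called without. Kcnq1ot1 had ratios of 0.648 and 0.492. Gm48051, the only measured gene at the Mir202 locus, had ratios of 0.647 and 0.653 and was not called. Malat1 had 70.5% of its UMIs in the 41 barcodes. Without them its ratio was 0.814 and 0.770.

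Over the whole table, 7 of the 15 genes with the largest ratio and at least 200 UMIs were carried by the Leydig-gate barcodes: Insl3, Hsd3b1, Ephx1, Cyp17a1, Ptgds, Agt and Hsd17b3 had 85.3% to 99.7% of their UMIs there. Folr1, a folate receptor, and Serpina5 were also among the 15, with 55.1% and 41.6%. The 15 without those barcodes were led by Serpina3a, a serpin, at 133-fold and 125-fold, and Cidea, a lipid droplet protein, at 114-fold and 155-fold. They also held Cldn11, Qpct (an enzyme that cyclizes glutamine at peptide ends), the nuclear receptor Nr0b1, the glutathione transferases Gstm6 and Gstm7, Cstdc1 and Kctd14. The other 6, Gm3880, Tsx, 4933402E13Rik, 1700018G05Rik, Gm9112 and Etd, are X-linked, as is Nr0b1. Etd stood at 178 and 187 CPM against 2.57 and 2.36, and 1700018G05Rik at 187 and 175 against 2.62 and 2.05. Gm3880, Gm9112 and 1700018G05Rik lie together on the X chromosome between 102686292 and 102929094, and the sources used here do not say how reads shared by near-identical copies were counted.

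X-linked genes were called more often than others. Without the 41 barcodes, 105 of 405 measured X-linked genes (25.9%) were higher than in other barcodes, against 6.19% of all measured genes and 3.28% (chromosome 14) to 8.01% (chromosome 3) of the genes of each autosome. X-linked genes supplied 1.48% and 1.46% of members' UMIs and 1.06% and 1.03% of those of other barcodes. Against barcodes of the Leydig gate 16 of 459 X-linked genes (3.49%) were higher, where 0.795% of all measured genes were, and 118 (25.7%) were lower, where 16.6% of all were. Against the macrophage gate 37 of 467 (7.92%) were higher, against 2.25% of all genes, and 83 (17.8%) lower, against 13.5%. Against the stromal or myoid gate 34 of 512 (6.64%) were higher, against 1.54% of all genes, and 132 (25.8%) lower, against 16.6%. X-linked genes thus had larger shares than all genes in both directions in each of these 3 comparisons. The floor described below for genes with 0 UMIs in a gate enters calls in both directions. Of 44 measured Y-linked genes 0 were higher.

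**Figure D5:**
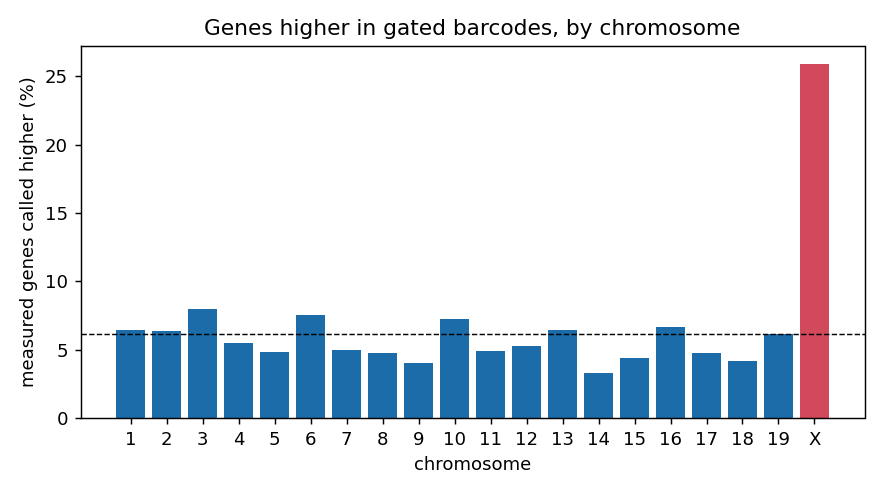
Share of measured genes called higher in the 1354 members outside the Leydig gate than in other barcodes (y axis, percent), by chromosome (x axis). The dashed line is the share over all measured genes, 6.19%. The X chromosome (red) is at 25.9% and the autosomes (blue) are at 3.28% to 8.01%.

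Mitochondrial transcripts also differed. All 13 mitochondrially encoded genes had ratios between 1.91 and 4.81, and 11 were called with the 41 barcodes and 10 without. The median mitochondrial share was 1.84% in members, 0.241% in other barcodes and 0.263% in barcodes of like depth with 0 gate UMIs. On summed levels the gap to barcodes of like depth was smaller than on medians: mt-Co3 stood at 5890 and 6579 CPM in members, at 2877 and 2587 in other barcodes and at 5359 and 4727 in those of like depth.

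The relatives of the gate genes fell into separate groups. Cstdc1, a cystatin-domain gene, stood at 51.3 and 53.5 CPM in the 1354 members against 0.565 and 0.741 in other barcodes, and Defb45, a beta-defensin between Defb19 and Defb36 on chromosome 2, at 82.7 and 107 against 1.31 and 1.22. Cstdc2 had 98.8% of its 81 UMIs in the Leydig-gate barcodes. Cst8, Cstl1, Cst13, Defb33 and Defb30 had ratios of 0.883 to 1.39 and were not called. These relatives were chosen with their values known.

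Against other somatic barcodes, members without the 41 had fewer genes called higher than lower. These sets are small and shallow in sum, with 3 UMIs worth 16.6 CPM over the Leydig gate. A gene with 0 UMIs in a gate was set at 3 counts under each suffix, worth 53.4 and 24.1 CPM for the Leydig gate. Members had to reach 2-fold of that to be called higher. Lower calls face no such bar. Where a gene had 0 UMIs in a gate under a single suffix, the same floor lowered its ratio there and could help a lower call. How many lower calls rest on the floor was not counted. The shares of higher and lower genes therefore cannot be set against each other. Of 13956 genes measured against the Leydig gate (38 barcodes), 111 (0.795%) were higher and 2322 (16.6%) lower, and with the 41 members counted 0.769% and 15.2%. Against the macrophage gate (85 barcodes) 326 of 14484 (2.25%) were higher and 1952 (13.5%) lower, and with the 41 counted 2.41% and 12.1%. Against the stromal or myoid gate (78 barcodes) 232 of 15040 (1.54%) were higher and 2498 (16.6%) lower, and with the 41 counted 1.49% and 15.4%. Of listed genes without the 41, 7 of 192 were higher and 52 lower than in the Leydig gate. The counts were 24 and 63 of 197 against the macrophage gate, and 15 and 84 of 212 against the stromal or myoid gate. In that order glutathione and redox genes had 0 and 10 of 17, 4 and 4 of 17, and 2 and 11 of 18. Phagocytosis and lysosome genes had 0 and 7 of 19, 1 and 18 of 23, and 0 and 15 of 23. Androgen-responsive genes had 2, 5 and 5 of 7 higher and 0 lower. Of genes higher than in other barcodes, 15 were also higher than in each of the 3 gates. Among the listed genes these were Rhox8, Tsx, Inha and Amhr2. Inha stood at 96.8 CPM in members, at 16.6 (3 UMIs) in the Leydig gate, 1.57 (1 UMI) in the macrophage gate and 4.08 (2 UMIs) in the stromal or myoid gate. Amhr2 stood at 128, 33.2, 3.14 and 4.08 CPM. Sox9 had 0 UMIs in the Leydig and macrophage gates. It was not called against them, since its 0 was set at the floor of 3 counts under each suffix. In the stromal or myoid gate Sox9 stood at 12.2 CPM. Clu stood at 433 CPM in members and 244 in the Leydig gate, against 4.71 and 12.2 in the others. In all, 335 genes were lower than in each of the 3 gates, with the same floor and 13956 to 15040 genes measured per gate. Of the 335, 23 were listed genes, with 192 to 212 listed genes measured per gate. By these numbers the share was larger for listed genes than for all genes, among the 15 as among the 335. The 23 included B2m, H2-K1 and H2-D1, which display antigen, Apoe, Fth1, Ftl1 and the lysosomal proteases Ctsb, Ctsd and Ctsh.

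Members were split by total UMIs into 3 groups of 464, 466 and 465. Median depth was 4016, 4958 and 8413 UMIs, and the median protamine and transition protein share was 5.50%, 5.29% and 10.8%. Of the 41 Leydig-gate barcodes 31 were in the deepest group. Without them, Clu stood at 360, 469 and 444 CPM from the shallowest to the deepest group, Ctsl at 429, 485 and 414, and Inha at 93.4, 101 and 96.1. Rhox8 stood at 217, 201 and 136 CPM and Rhox5 at 63.0, 56.2 and 33.7, lowest in the deepest group. Prm1, a protamine, was highest there, at 22784, 26457 and 46460 CPM. The part of germ cell RNA in the lower Rhox levels was not tested. Thinned to 3500 UMIs, members and barcodes of like depth had a median of 1853 and 1862 genes.

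Variation from barcode to barcode was judged by the Fano factor, the variance over the mean, of counts thinned to 3500 UMIs. Its median was 1.07 over 4799 genes with a mean of at least 0.1. The highest values were 342 for Hbb-bs, 108 for Malat1, 91.3 for Hba-a1, 71.9 for Hba-a2 and 59.2 for Ptgds. The haemoglobin genes were concentrated in few barcodes: of 648 Hbb-bs UMIs 474 were in 1 barcode and 126 in another, both under suffix 2. Without the 41 barcodes the values of Malat1 and Ptgds were 12.3 and 2.53. Among Sertoli genes Clu then had 6.27 and Ctsl 5.59, where barcodes of like depth had 1.25 and 1.40 at much lower means.

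Few genes passed the size rule between the suffixes within members. Of 13299 genes measured (at least 20 UMIs over both suffixes), 6 (0.0451%) were at least 2-fold higher under suffix 2 and 24 (0.18%) under suffix 1. The higher suffix had to hold at least 50 UMIs, so that sparser measured genes could not be called. With a minimum of 20 UMIs there, 66 genes were higher under suffix 2 and 131 under suffix 1. Without the 41 barcodes, at 50 UMIs, 7 (0.0549%) and 18 (0.141%) of 12748 were called. The 5 largest ratios of suffix 2 over suffix 1 were Hba-a1 at 49.5, Hba-a2 at 46.9, Hbb-bs at 34.9, Svs5 at 5.75 and H2-Eb1 at 2.73. For Hba-a1 137 and 67 of 223 UMIs under suffix 2 lay in single barcodes. Of 207 Svs5 UMIs under suffix 2 164 lay in 1 barcode, and without the 41 Leydig-gate barcodes the ratio was 1.22 and was not called. The 5 smallest were Mia at 0.0863, Gm2044 at 0.178, Zfp820 at 0.237, Rnf111 at 0.317 and Cd36 at 0.333. Mia had 86 UMIs in 1 barcode and was left with 3 UMIs in all without the 41, and Cd36 with 2. Gm2044 was detected in 140 members under suffix 1 and 22 under suffix 2, and its ratio in other barcodes was 0.152. None of the 11 panel genes was among these 30 genes, though sparse ones such as Gata4 had little room for a call. Genotype, library and suffix cannot be told apart here.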

How the data were processed

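Values are UMI counts for each gene in each barcode, as the authors deposited them: whole numbers with unequal totals, hence raw. Cell Ranger 1.3.1, Seurat 3.2.2 and the build GRCm38 are named in the submitters' processing notes, and the sources used here give no filter on barcodes. The lowest total was 3529 UMIs.

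UMIs were summed over the gated barcodes of each suffix and scaled to CPM. Ratios have exact conditional binomial 95% intervals, shares Clopper-Pearson and levels exact Poisson intervals. Where a gene had 0 UMIs in a set, 3 counts served as the floor. No doublet caller was run. Instead, members that passed another gate or held over 3 times the median UMIs were left out as an alternative. The code of the size rule was checked on simulated Poisson counts of members against all other barcodes. That check held no variation between barcodes beyond counting and none of the small gates, and does not bear on them. Positions are from GENCODE M21, which matched 20088 of 20476 symbols (98.1%).

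Genes named were, in each list, up to 4 with the largest ratio and up to 2 with the smallest, a fixed set of Sertoli genes, the 15 largest ratios in the table, and the 5 highest Fano factors and suffix ratios in each direction. Shbg, Sparc, Gas6, Hk2, Gapdh, Slc16a1, Cstdc2, the genes set against other gates, the mitochondrial genes and the lead genes without the Leydig-gate barcodes were added with their values known, as was leaving out those barcodes. A few genes that the rule names are not reported here. The members and lists were themselves chosen with earlier results of these data known. Python 3.11.15, numpy 2.4.6, scipy 1.17.1 and pandas 2.3.3 were used.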

Additional observations from a re-analysis of the deposited data

How the results depend on the processing

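The number of members followed the gate. Against 1395 (4.94%), a minimum of 3 or 10 UMIs gave 1581 (5.60%) or 938 (3.32%), a minimum of 14 or 3.5 per 10000 gave 1056 (3.74%) or 1586 (5.62%), and no minimum share gave 1745 (6.18%). Leaving out Cst9, Cst12, Defb19, Defb36 or Aard gave 1229 (4.35%), 1264 (4.48%), 989 (3.502%), 1299 (4.599%) or 1262 (4.47%). Listed genes lower than in other barcodes were 0, and 2 with the stricter gate, 2 against barcodes of like depth, 2 with suffix 2 alone, 21 on UMIs per barcode, 4 at 1.5-fold and 1 with no minimum of 50 UMIs. Listed genes higher were 61 without deep members and those in another gate and 48 at 200 UMIs, against 94. All genes higher were 719 in the first of these, 1700 with no minimum and 400 at 200 UMIs, against 1123. All genes lower were 104 against like depth, 4372 on UMIs per barcode, 12 after division by the median ratio, 74 with suffix 2 alone, 334 at 1.5-fold, 2 at 3-fold, 61 with no minimum and 3 at 200 UMIs, against 24. Between the suffixes 56 and 228 genes were higher under suffixes 2 and 1 at 1.5-fold, and 66 and 131 at 20 UMIs, against 6 and 24. Leaving out the 41 Leydig-gate barcodes, an alternative chosen after seeing the data, turned the pooled ratios of Insl3 (0.758), Cxcl12 (0.382), Cd36 (0.552), Serping1 (0.809) and Neat1 (0.632). Leaving out deep members and those in another gate turned Insl3 (0.560), Cyp17a1 (0.946), Cxcl12 (0.223), Cd36 (0.624), Serping1 (0.174), Meg3 (0.819) and Neat1 (0.587). Leaving out barcodes whose sequence occurs under both suffixes, also chosen after seeing the data, moved 0 of 111 named ratios beyond their intervals. Other settings moved more of them, with no reversal: 109 on UMIs per barcode, 93 with no minimum share, 92 in members of low protamine share, 58 with the stricter gate, 54 against like depth, 35 and 37 with suffix 1 or 2 alone and 14 after division by the median ratio. By the rule itself, genes with fewer than 50 UMIs found or expected cannot be called. No paired analysis was possible because there is 1 sample per genotype and no suffix is tied to one.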
